A study of Mus musculus with 12 samples.

Results

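The 6 libraries described here came from mouse embryonic fibroblasts that had not been given doxycycline (dox), 3 from the NLS-N-VEGF population and 3 from the N-VEGF population. They were chosen by their labels out of 12 libraries in the series, and the question is which functions differed between the populations before induction. The cells are the NIH3T3 line, a continuous line of mouse embryonic fibroblasts. Each population was infected with a lentiviral vector that places the insert under a dox-inducible promoter and was then selected with puromycin, so every group, the uninduced ones included, carried the vector and had been through selection. A population is a pool of stably infected cells, with 1 pool per construct as far as the sources used here say. The construct and the history of the pool therefore cannot be told apart in any comparison between them.

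The labels give each library a number, 1 or 2, and a suffix, and the same 3 combinations occur in every group. The comparison was made within these 3 pairs, named 1_120519, 2_120519 and 2_290419. The suffix of the first and the second is called suffix a and that of the last suffix b. The other 6 libraries, 3 from each population after exposure to dox, are further samples of the same pools and serve here only to show whether a baseline difference was still there after induction. Nothing in the labels says that libraries of a group came from separate cultures, so the tests measure the spread between these libraries, which may be technical.

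N-VEGF is the amino-terminal extension made when translation of the long Vegfa mRNA starts upstream of the usual start codon, and it is split from the secreted growth factor. A nuclear localization signal (NLS) is a short run of basic residues that is read by importins and carries a protein into the nucleus. Uninduced cells of such a system are meant to differ little, since the promoter of the insert is designed to be off without dox. Growing fibroblasts do, however, carry programs that respond within minutes to serum, medium change and contact, of which the immediate early genes such as Fos and Egr1 are the classic example.

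The designed difference between the populations is visible in the forward oligonucleotides that built the inserts. They are shown because every comparison below is between cells that differ by design only in this stretch, with the bases present only in the NLS-N-VEGF oligonucleotide in capitals.
N-VEGF forward oligonucleotide: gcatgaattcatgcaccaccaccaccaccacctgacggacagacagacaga
NLS-N-VEGF forward oligonucleotide: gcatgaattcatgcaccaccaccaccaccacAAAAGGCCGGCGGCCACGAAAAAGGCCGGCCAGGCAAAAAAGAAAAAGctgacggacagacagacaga
The oligonucleotides have 51 and 99 bases. The insertion of 48 bases, or 16 codons, lies directly after the run of histidine codons.

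The 6 libraries held 13862189 to 17316049 counts. Of 15 fibroblast markers, 14 had a mean over 1 CPM (counts per 1000000 counts of a library after TMM scaling), and their summed level was 13148 to 13801 CPM in NLS-N-VEGF and 12822 to 14993 CPM in N-VEGF cells. The 6 lists of other cell types were low, from 3.21 to 41.5 CPM summed over a list, with overlapping ranges in both populations. One library stood apart. N-VEGF replicate 1_120519 had 19976 genes detected against 21475 to 22889 in the other 5, and 99.0% of its counts in protein-coding genes against 97.9% to 98.6%. Results are therefore given with and without it. Of all pairs of libraries within a group, NLS-N-VEGF replicates 1_120519 and 2_120519 without dox were the closest. Their chi-square was 1.76 per degree of freedom over genes, where 1 would be sampling noise, and the other pairs within a group had 3.08 to 76.07. They were kept as separate libraries, but may be close to technical repeats.

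No gene passed the test between the uninduced populations. Of 13608 genes tested with edgeR's quasi-likelihood method, 0 (0%) had a Benjamini-Hochberg adjusted p under 0.05, and the smallest was 0.724. At an unadjusted p under 0.05 there were 499, of which 295 (2.17%) were higher and 204 (1.5%) lower in NLS-N-VEGF cells. DESeq2 called 0 genes as well, with 266 at an unadjusted p under 0.05. Fitted with no pairing, 52 (0.382%) were higher and 30 (0.22%) lower at that threshold. Without N-VEGF replicate 1_120519 edgeR again called 0 of 13947 genes, with 132 (0.946%) higher and 174 (1.25%) lower at an unadjusted p under 0.05. In each of these fits the total was below the share of 0.05 that this threshold would give if no gene differed. Regardless of any threshold, 1436 genes (10.6%) were higher and 1325 (9.74%) lower in all 3 pairs. These shares are the background for every count below. The 3 pairs were not alike in their ratios. Over 12049 genes the log2 ratios of pairs 1_120519 and 2_120519 correlated at 0.156. Against pair 2_290419 the correlations were -0.178 for pair 1_120519 and -0.134 for pair 2_120519. Between the fits without and with dox the correlation of the fold changes was 0.13. Since no gene is called, the levels that follow are measured differences with their errors and not established changes. In bulk RNA, fewer cells that express a gene and less RNA per cell cannot be told apart.

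The immediate early genes gave the clearest pattern. Egr1, a zinc finger transcription factor induced within minutes by growth factors, had 241, 239 and 113 CPM in the NLS-N-VEGF population and 69.8, 112 and 101 CPM in N-VEGF cells, in the order 1_120519, 2_120519 and 2_290419. Both NLS-N-VEGF libraries of suffix a were far above all N-VEGF libraries, and the library of suffix b was level with them. The log2 fold change was 1.02 (SE 0.20) with an edgeR adjusted p of 0.724.

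Ier2 (ENSMUSG00000053560, GRCm38 chromosome 8, 84661331 to 84662852), a nuclear protein of the same early response, had 67.3, 68.3 and 32.6 CPM in NLS-N-VEGF and 44.2, 46.7 and 28.2 CPM in N-VEGF cells. It was higher in all 3 pairs, by 0.60, 0.55 and 0.21 on the log2 scale. Btg2, an antiproliferative cofactor of mRNA deadenylation, had 25.8, 24.7 and 11.3 CPM against 16.1, 15.8 and 9.44 CPM, a log2 fold change of 0.55 (SE 0.14). Junb, a subunit of the AP-1 transcription factor, had 36.3, 37.8 and 25.8 CPM against 28.2, 28.1 and 21.3 CPM, a log2 fold change of 0.36 (SE 0.10). For these 3 genes the populations overlapped only through the low libraries of suffix b, and within each suffix NLS-N-VEGF was above N-VEGF.

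Fos, the partner of Jun proteins in AP-1, was present at low level, with 4.66, 4.78 and 1.71 CPM in NLS-N-VEGF and 1.51, 2.16 and 2.27 CPM in N-VEGF cells. Cyr61 (ENSMUSG00000028195, chromosome 3, 145646976 to 145649981), a secreted matricellular protein that binds integrins, had 166, 165 and 113 CPM against 84.1, 85.0 and 129 CPM. In the pairs of suffix a the log2 ratios were 1.55 and 1.104 for Fos and 0.98 and 0.96 for Cyr61. In pair 2_290419 both were lower in NLS-N-VEGF, by 0.38 and 0.19 on the log2 scale. Nr4a1, an orphan nuclear receptor, behaved more evenly, with 52.2, 49.9 and 64.3 CPM against 43.3, 41.0 and 49.7 CPM and log2 ratios of 0.27, 0.28 and 0.37.

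**Figure D1:**
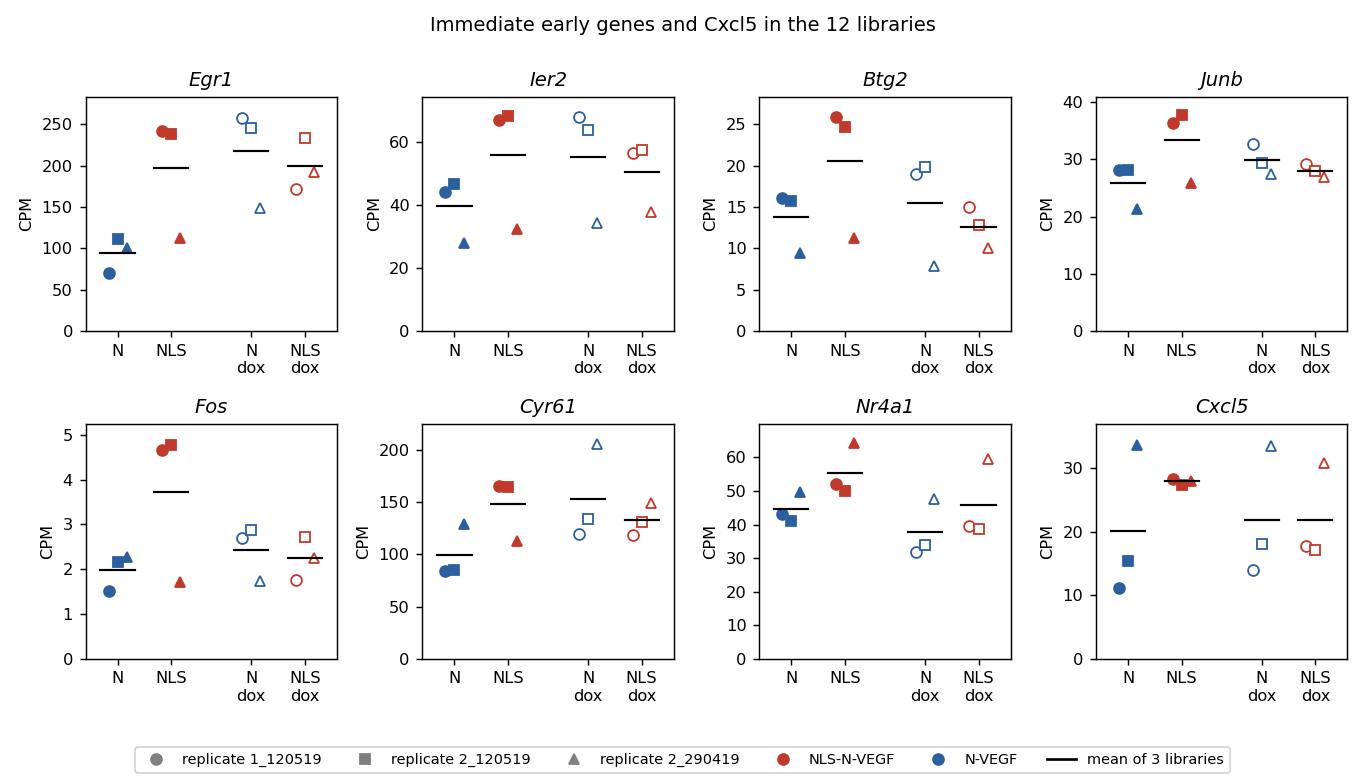
Levels in CPM (linear axis from 0) of 7 immediate early genes and the chemokine gene Cxcl5 in the 12 libraries, in N-VEGF (N) and NLS-N-VEGF (NLS) cells, with filled symbols without dox, open symbols with dox, a symbol shape per replicate and a line at the mean of 3 libraries. For Egr1 the NLS-N-VEGF libraries of suffix a lie at 241 and 239 CPM, above the 3 uninduced N-VEGF libraries at 69.8 to 112 CPM, while with dox the populations overlap.

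Over the whole list of 26 immediate early genes, 22 were higher in NLS-N-VEGF and 8 of these had an unadjusted p under 0.05, against 2.17% of all genes. None was lower at that threshold, and 12 of 26 were higher in all 3 pairs against 10.6% of all genes. The 8 were Egr1, Ier2, Btg2, Junb, Nr4a1, Cyr61, Fos and Egr2. Other members were close to even, among them Jun at -0.04, Myc at -0.0006 and Fosl1 at 0.03 on the log2 scale. The median log2 fold change was 0.14, beside -0.0019 for all genes tested. By pair it was 0.11, 0.25 and 0.04.

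The pattern did not rest on N-VEGF replicate 1_120519. Without it 25 of 26 members were higher, 9 of them at an unadjusted p under 0.05 where 0.946% of all genes were, and the median was 0.16. Egr1 was then higher by 0.76, Ier2 by 0.42, Junb by 0.38 and Nr4a1 by 0.37 on the log2 scale. The suffix made more of a difference. In a fit of the 8 libraries of suffix a alone, with 2 libraries per group, edgeR called 7 of 13387 genes (0.0523%) at an adjusted p under 0.05. These were Cyr61 (log2 fold change 0.96), Egr1 (1.43), the prostaglandin synthase gene Ptgs2 (0.96), Cxcl5 (1.08), the matricellular gene Thbs1 (0.67) and Ier2 (0.57), all higher, and the receptor gene Notch4, which was lower at -0.96. Their adjusted p values in that edgeR fit lay between 0.00113 and 0.0288. The 2 uninduced NLS-N-VEGF libraries in that fit are the closest pair described above and may be close to technical repeats, so its spread may be too small. For suffix b there was 1 library per group, which allows no test. The genes' log2 ratios in that pair were -0.19 for Cyr61, 0.16 for Egr1, -0.40 for Ptgs2, -0.27 for Cxcl5, -0.12 for Thbs1, 0.21 for Ier2 and 0.52 for Notch4.

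After induction the immediate early genes as a list were close to even between the populations. With dox, Egr1 had 172, 234 and 193 CPM in NLS-N-VEGF and 258, 245 and 148 CPM in N-VEGF cells, and the log2 fold change between populations was -0.10. By pair the log2 ratios of Egr1 with dox were -0.59, -0.07 and 0.38. The median of the list was -0.01, and by pair it was -0.02, -0.03 and 0.10. Of the 26 members 13 were higher, and 2 had an unadjusted p under 0.05 in that direction, beside 2.87% of all genes (1.7% were lower at that threshold). The change of the population difference between no dox and dox was tested directly. At an unadjusted p under 0.05 this interaction took in 6 of the 26 (Egr1, Ier2, Btg2, Junb, Cyr61 and Fos) against 3.41% of all genes, and 0 genes passed after edgeR's adjustment, with a smallest adjusted p of 0.9998. For Egr1 the interaction was 1.11 on the log2 scale. Nr4a1 differed from the rest, with a population difference of 0.31 without dox and 0.28 with dox.

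Because several of these genes varied together across libraries, the 250 bases before their RefSeq start (build GRCm38.p6) were searched on both strands. The motifs were TGACG, the core of the cyclic AMP response element, the full element TGACGTCA, which contains it, the AP-1 motif TGANTCA, the CArG box bound by the serum response factor, and the NF-κB motif. Of the 26 genes 20 had a promoter in the table. Cyr61, Egr1, Egr3, Fosl1, Ier2 and Myc had none. TGACG was found in 13 of 20, beside 19.8% of all 27025 genes with a promoter, and a CArG box in 3 of 20, beside 1.62%. The 27025 genes include many outside the 13608 tested here, so these shares are not those of the genes expressed in these cells. The full element was found in 2 of 20, beside 1.77%, the AP-1 motif in 0 of 20, beside 7.82%, and the NF-κB motif in 5 of 20 (Fos, Fosb, Fosl2, Ier3 and Maff), beside 4.46%. Of the 19 cytokine and chemokine genes described next 14 had a promoter in the table, and TGACG, the AP-1 motif and the NF-κB motif were each found in 4 of 14, the full element and a CArG box in 0 of 14. A match is a description of these letters and not of binding. Sites outside these 250 bases were not searched, so a gene without a match may have one elsewhere.

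The promoters of 4 members with a difference in the pairs of suffix a are shown, each written 5′ to 3′ on the strand of its gene, with TGACG or its reverse complement, and the full element where present, in capitals. Fos lies at chr12:85473640-85473889 on the plus strand, Junb at chr8:84978749-84978998 on the minus strand, Btg2 at chr1:134079156-134079405 on the minus strand and Nr4a1 at chr15:101266596-101266845 on the plus strand.
Fos: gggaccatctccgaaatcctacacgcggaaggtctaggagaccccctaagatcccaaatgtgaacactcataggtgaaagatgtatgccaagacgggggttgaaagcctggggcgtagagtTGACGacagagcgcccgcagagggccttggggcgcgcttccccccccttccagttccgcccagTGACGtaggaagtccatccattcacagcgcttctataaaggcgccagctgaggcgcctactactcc
Junb: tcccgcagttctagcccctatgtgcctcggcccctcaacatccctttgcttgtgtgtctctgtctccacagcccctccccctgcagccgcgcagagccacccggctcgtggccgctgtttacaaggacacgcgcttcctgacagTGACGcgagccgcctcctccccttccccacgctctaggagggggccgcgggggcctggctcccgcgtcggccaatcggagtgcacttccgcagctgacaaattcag
Btg2: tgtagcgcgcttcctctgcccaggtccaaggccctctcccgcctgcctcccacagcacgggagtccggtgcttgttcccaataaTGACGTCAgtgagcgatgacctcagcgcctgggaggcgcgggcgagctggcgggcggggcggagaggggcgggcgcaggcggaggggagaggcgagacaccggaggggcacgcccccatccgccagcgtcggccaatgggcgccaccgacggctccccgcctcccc
Nr4a1: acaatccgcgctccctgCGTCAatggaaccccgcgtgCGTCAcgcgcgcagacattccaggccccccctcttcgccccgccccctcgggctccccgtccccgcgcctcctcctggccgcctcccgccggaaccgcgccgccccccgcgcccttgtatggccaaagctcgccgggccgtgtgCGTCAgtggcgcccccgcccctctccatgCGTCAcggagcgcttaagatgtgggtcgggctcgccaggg
The counts of TGACG in these windows were 2, 1, 2 and 4. In Btg2 both lie in the palindrome of the full element, 1 on each strand.

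Cytokines and chemokines, the secreted signals by which fibroblasts recruit leukocytes, also lay to the higher side, but depended more on N-VEGF replicate 1_120519. Cxcl5, a neutrophil attractant, had 28.4, 27.4 and 28.0 CPM in NLS-N-VEGF and 11.1, 15.3 and 33.7 CPM in N-VEGF cells. The NLS-N-VEGF libraries were alike, and the N-VEGF libraries of suffix a were the low ones. Ptgs2, counted in this list as the inducible prostaglandin synthase, had 325, 295 and 270 CPM against 140, 182 and 356 CPM. Ccl2, the main attractant of monocytes, had 73.4, 72.8 and 75.5 CPM against 38.7, 59.7 and 70.1 CPM, so that each NLS-N-VEGF library was above each N-VEGF library.

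Of the 19 list members tested, 14 were higher in NLS-N-VEGF. Cxcl5, Ptgs2, Ccl2 and Cxcl12 had an unadjusted p under 0.05 in that direction, beside 2.17% of all genes. No member was lower at that threshold, beside 1.5% of all genes. The median log2 fold change was 0.13, and by pair it was 0.45, 0.17 and -0.02. Without N-VEGF replicate 1_120519 the median was 0.08 and 1 member was higher at an unadjusted p under 0.05, beside 0.946% of all genes. With dox the median was 0.11, with Cxcl12, the ligand of Cxcr4, higher in NLS-N-VEGF by 0.62. Markers of leukocytes, which are the cells that respond to these signals, summed to 35.3 to 40.2 CPM in NLS-N-VEGF and 35.03 to 41.54 CPM in N-VEGF cells, and their part in the values above was not tested.

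A small set of genes differed in the same direction before and after induction. Of the 499 genes at an unadjusted p under 0.05 without dox, 59.5% had the same sign with dox, beside 56.9% of all genes. With the same sign and an unadjusted p under 0.05 with dox there were 5.41% of them, beside 2.64% of all genes. These were 27 of 13608 genes (0.198%), 22 of them with 1 sign in all 6 pairs. The 27 were chosen by p and sign in these pairs, so this agreement of signs follows in part from the choice. For 11 of the 22 the unadjusted p was also under 0.05 without N-VEGF replicate 1_120519, 9 higher and 2 lower in NLS-N-VEGF. They are named here after their values were seen. Both states were fitted together and share the estimate of the spread.

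Adamts2 (ENSMUSG00000036545, chromosome 11, 50602084 to 50807573), the procollagen amino-propeptidase that prepares fibrillar collagen for assembly, had 16.7, 14.8 and 15.1 CPM in NLS-N-VEGF and 11.8, 9.98 and 10.9 CPM in N-VEGF cells without dox, and the populations did not overlap. The log2 ratios were 0.49, 0.56 and 0.46 without dox and 0.41, 0.32 and 0.94 with dox, and the difference was 0.59 both without N-VEGF replicate 1_120519 and with dox. Sema7a, a membrane-anchored semaphorin, had 85.3, 84.5 and 78.4 CPM against 74.5, 65.1 and 62.1 CPM, also without overlap, and was higher by 0.30 without and 0.33 with dox. Adam12, a disintegrin metalloprotease of mesenchymal cells, was higher by 0.37 without and 0.30 with dox. The other higher genes were Nr4a1, Usp2, Sgtb, Amigo3, Macc1 and Gm26824, with differences of 0.24 to 1.53 without dox.

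Aldh3a1 (ENSMUSG00000019102, chromosome 11, 61207537 to 61218421), an aldehyde dehydrogenase that clears lipid aldehydes, was the strongest of the lower genes. It had 14.8, 14.3 and 8.78 CPM in NLS-N-VEGF and 32.9, 20.3 and 10.2 CPM in N-VEGF cells, and was lower in every pair, by 1.15, 0.50 and 0.21 on the log2 scale. The log2 fold change was -0.68 (SE 0.15) with an edgeR adjusted p of 0.939, -0.45 without N-VEGF replicate 1_120519 and -0.48 with dox. Sbsn, a secreted protein first described in epidermis, had 3.62, 4.09 and 10.2 CPM against 5.28, 5.91 and 12.6 CPM and was lower by 0.44 without and 0.32 with dox. In both genes the order within each pair held although the level changed with the suffix.

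Neither the construct row nor its own pathway separated the uninduced populations. The insert had 0.29, 0.44 and 0.86 CPM in NLS-N-VEGF and 0.31, 0.62 and 0.41 CPM in N-VEGF cells and the ranges overlapped. In these libraries 3 counts correspond to 0.17 to 0.22 CPM. The log2 fold change was 0.23 (SE 0.51), so a difference of this size was not detectable at this depth. With dox the insert was at 2.57 to 10.2 CPM in NLS-N-VEGF and 7.56 to 17.9 CPM in N-VEGF cells. Vegfa differed by 0.09 (SE 0.10) and Hif1a, the oxygen-regulated subunit of the hypoxia-inducible factor (HIF), by 0.02 (SE 0.08), and both changed sign without N-VEGF replicate 1_120519, to -0.0042 and -0.058. The 7 tested members of the VEGF family and its receptors had a median of -0.08, and of -0.04 without that library, with 0 at an unadjusted p under 0.05.

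HIF target genes outside glycolysis lay slightly to the higher side. Of 31 tested, 21 were higher in NLS-N-VEGF, 10 in all 3 pairs against 10.6% of all genes. The median was 0.06, with 0.06, 0.03 and 0.05 by pair. At an unadjusted p under 0.05 there were 5 higher members, Fam162a, Adm, Angptl4, Higd1a and Loxl2, and 1 lower, Bhlhe40. Of all genes 2.17% were higher and 1.5% lower at that threshold. Without N-VEGF replicate 1_120519 there were 3 higher and 0 lower, at a median of 0.04, and with no pairing 1 higher and 0 lower. Fam162a, a mitochondrial protein induced by hypoxia, had 87.1, 90.1 and 74.5 CPM against 68.4, 76.7 and 64.7 CPM and was higher in each pair, by 0.35, 0.23 and 0.20. Of its exon bases 19.8% lie opposite Wdr5b, and the counting is not stated to use strand. Adm, the precursor of the vasodilator peptide adrenomedullin, had 19.2, 18.5 and 14.1 CPM against 12.4, 13.1 and 13.2 CPM, with no overlap. Angptl4, an inhibitor of lipoprotein lipase, was higher by 0.19, and by 0.28 without N-VEGF replicate 1_120519. With dox Adm differed by 0.38 and Angptl4 by -0.14. Of the 31 genes 27 were higher with dox, at a median of 0.08.

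Several lists lay to the lower side by small amounts. Of 37 mitosis genes, the kinesins, checkpoint kinases and spindle proteins of dividing cells, 30 were lower in NLS-N-VEGF, 12 of them in all 3 pairs against 9.74% of all genes, and 0 had an unadjusted p under 0.05. The median was -0.06, with -0.11, -0.05 and -0.04 by pair, and -0.05 without N-VEGF replicate 1_120519. Plk1, a kinase of mitotic entry, had 66.0, 66.4 and 73.4 CPM against 90.4, 68.7 and 73.8 CPM. Ube2c, the ubiquitin-conjugating enzyme of the anaphase-promoting complex, had 73.9, 68.3 and 88.6 CPM against 95.1, 75.9 and 92.4 CPM. Both were lower in each pair, but the size came from N-VEGF replicate 1_120519. DNA replication genes did not show the same order, with 25 of 41 lower in the full set and 31 of 41 higher without that library. With dox 28 of 37 mitosis genes were higher, at a median of 0.03.

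Cholesterol synthesis genes stood on opposite sides before and after induction. Of 24 tested, 17 were lower in NLS-N-VEGF without dox and 23 were higher with dox, with medians of -0.09 and 0.15. The difference between these states had an unadjusted p under 0.05 for 11 of 24 genes against 3.41% of all genes, and for 0 after adjustment. Nsdhl, a sterol dehydrogenase, had 81.9, 81.2 and 117 CPM against 111, 89.4 and 117 CPM without dox, and differed by -0.19 without and 0.25 with dox. Cyp51, the sterol demethylase, differed by -0.07 and 0.26. Fdft1, squalene synthase, was the only member with an unadjusted p under 0.05 without dox, at -0.19, and 18.3% of its exon bases lie opposite Ctsb. The baseline part of the pattern was small and uneven, with medians of -0.20, -0.09 and 0.06 by pair and -0.05 without N-VEGF replicate 1_120519. Fatty acid synthesis genes followed the same order, with 13 of 16 lower and a median of -0.09 without dox, -0.03 without N-VEGF replicate 1_120519, and 0.11 with dox.

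**Figure D2:**
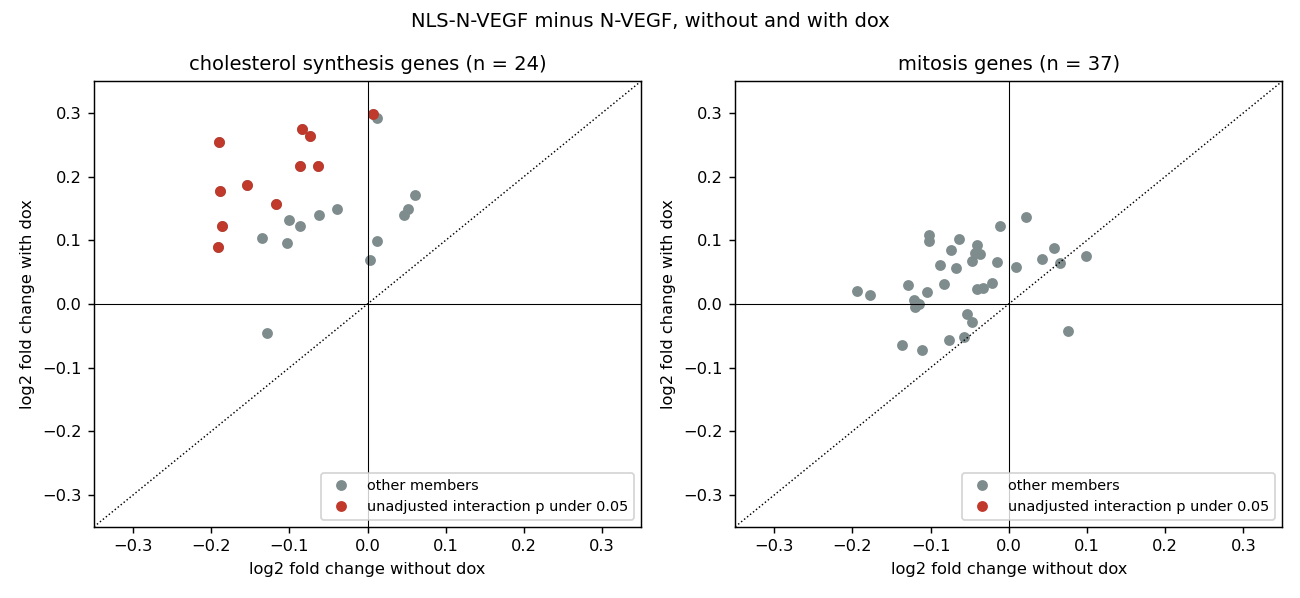
Log2 fold change, NLS-N-VEGF against N-VEGF, without dox (x axis) and with dox (y axis) for the tested cholesterol synthesis and mitosis genes, 1 point per gene, with the diagonal dotted and genes with an unadjusted interaction p under 0.05 in red. Of the 24 cholesterol genes 23 lie above 0 on the y axis while 17 lie below 0 on the x axis, and 11 are red. Of the 37 mitosis genes 30 lie below 0 on the x axis and 0 are red.

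Other differences followed N-VEGF replicate 1_120519. The long noncoding RNA genes, mostly hosts of small nucleolar RNAs plus nuclear RNAs such as Malat1, had a median of 0.22, with 18 of 20 higher and 4 at an unadjusted p under 0.05 (Snhg15, Snhg1, Snhg17 and Snhg6). By pair the median was 0.80, 0.0015 and -0.08, and without that library it was 0.02. Malat1, a nuclear-retained RNA of speckles, had 1013, 892 and 1079 CPM in NLS-N-VEGF and 220, 905 and 1255 CPM in N-VEGF cells. Gas5, a snoRNA host degraded by nonsense-mediated decay, had 293, 295 and 401 CPM against 120, 279 and 412 CPM. In each of these genes a single library was low and the other 5 were close within their suffix. The same held over all 1081 long noncoding genes tested, with a median log2 ratio of 0.45 in pair 1_120519 and of 0.02 and -0.03 in the other pairs, beside -0.01 in that pair for protein-coding genes. For low genes, under 1 CPM, the median ratio in pair 1_120519 was 0.48. That library also had the fewest genes detected and the highest share of protein-coding counts, and the part of these library properties in the values was not tested.

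Highly expressed housekeeping lists mirrored them. Cytosolic ribosomal protein genes had 60 of 79 lower in NLS-N-VEGF with a median of -0.27 in pair 1_120519 and 0.02 and 0.04 in the others, and 61 of 79 were higher without that library. Rplp0, the stalk protein of the large subunit, had 3005, 3025 and 2741 CPM against 4423, 3107 and 2603 CPM. Translation factors had a median of -0.09 with it and 0.0035 without it, glycolysis genes -0.04 and 0.04, nuclear respiratory chain genes -0.05 and 0.02, and ATF4 target genes -0.06 and -0.02. For these lists the direction or nearly all of the size was that of 1 library. Proteasome genes went from 13 of 31 higher to 30 of 31 higher without it, at a median of 0.06, and to 3 of 31 higher with dox.

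**Figure D3:**
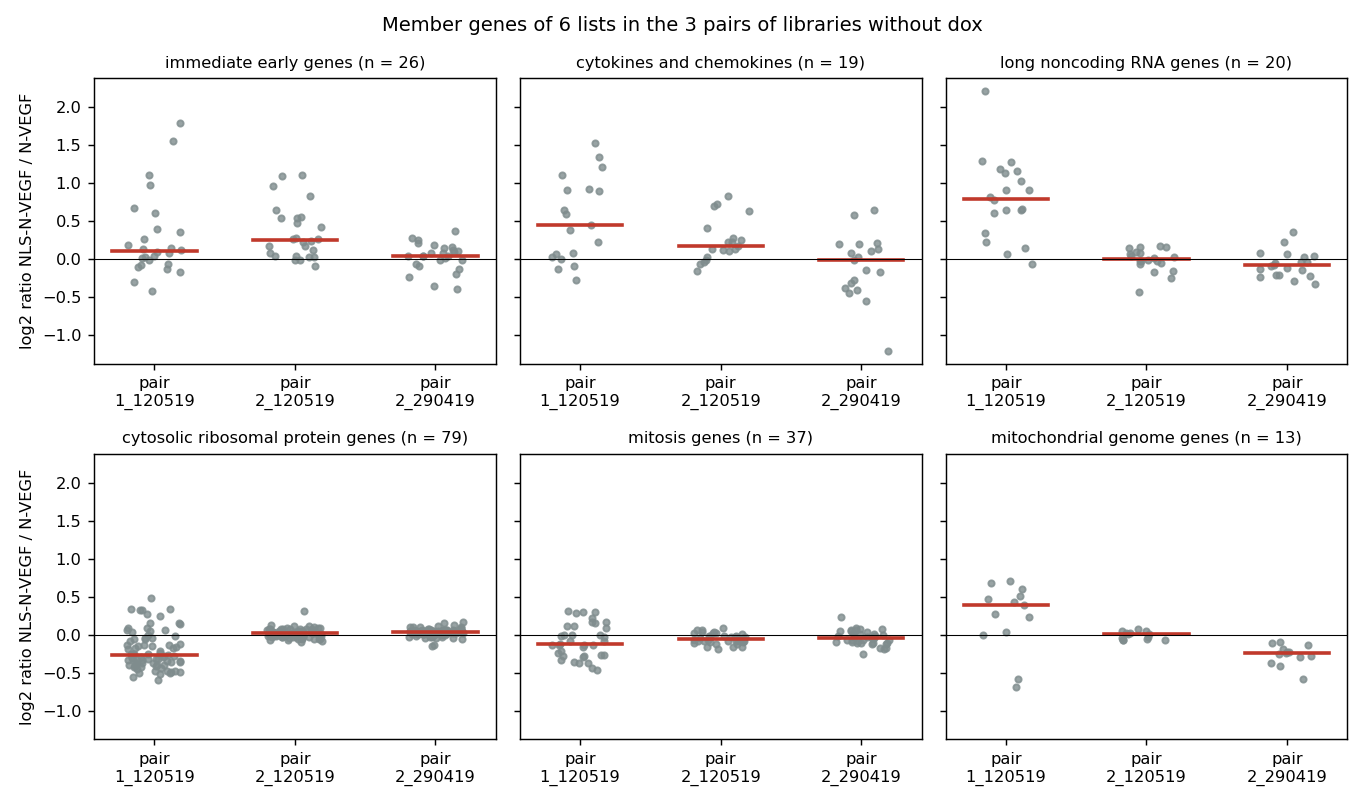
Log2 ratio NLS-N-VEGF to N-VEGF of each member gene (grey points) in the 3 pairs of libraries without dox, with the median of the list as a red line, for 6 lists. The long noncoding RNA genes have a median of 0.80 in pair 1_120519 and of 0.0015 and -0.08 in the others, while the immediate early genes have medians of 0.11, 0.25 and 0.04.

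**Figure D4:**
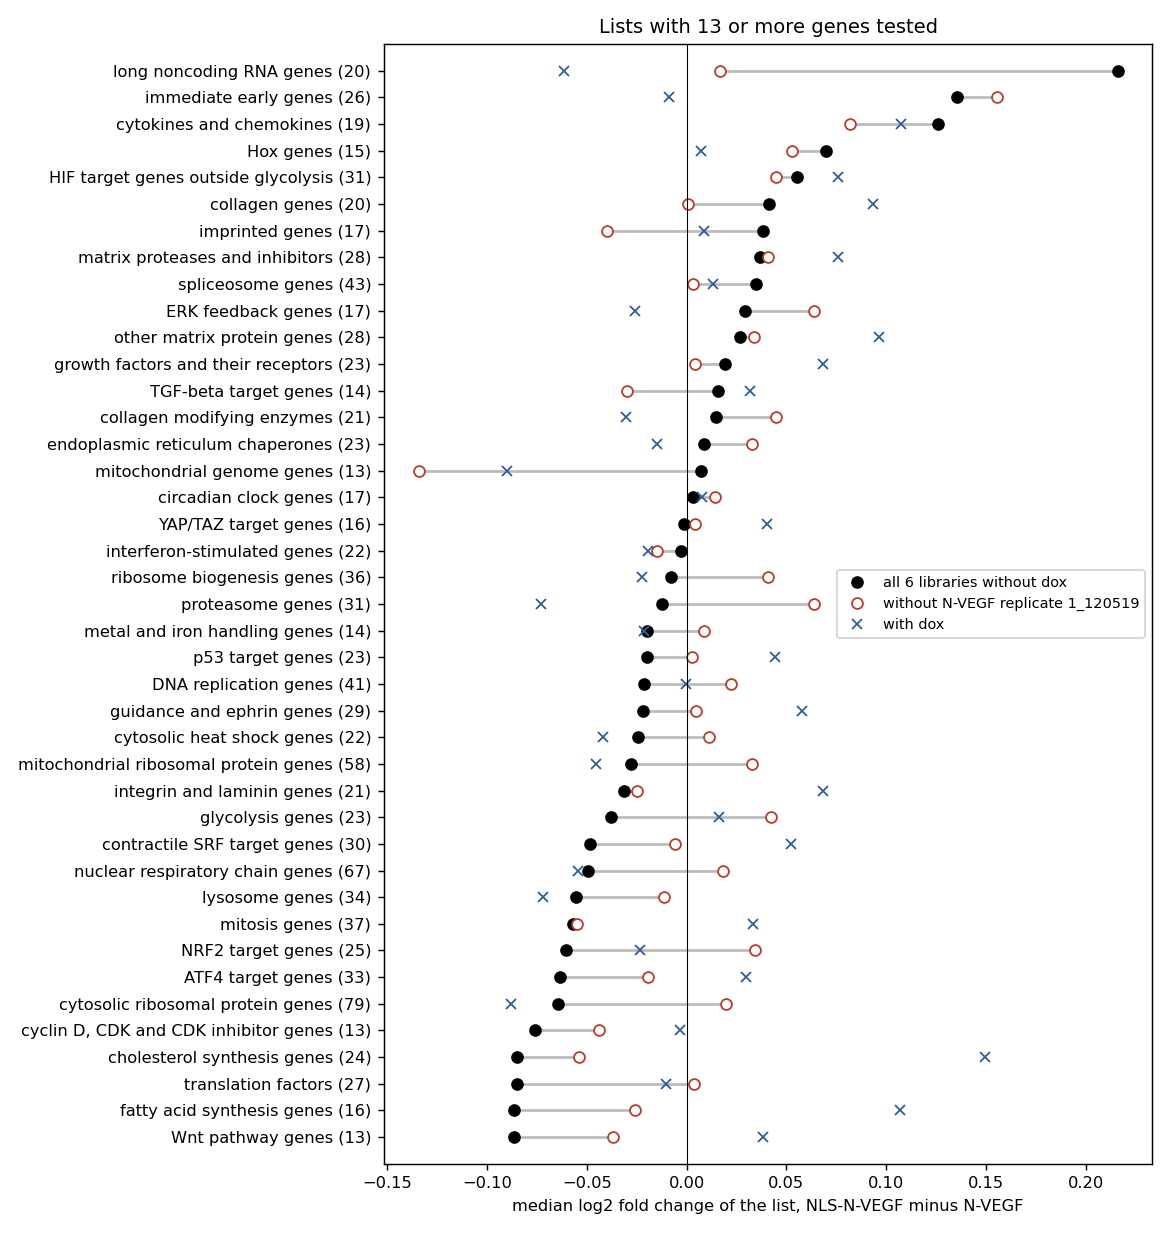
Median log2 fold change (NLS-N-VEGF minus N-VEGF) of the 41 function lists with 13 or more genes tested, with all 6 uninduced libraries (black), without N-VEGF replicate 1_120519 (red) and with dox (blue crosses), and the number of genes in brackets. The immediate early genes stay at 0.14 and 0.16 while the long noncoding RNA genes go from 0.22 to 0.02 and the mitochondrial genome genes from 0.01 to -0.13.

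The 13 protein-coding genes of the mitochondrial genome went the other way. With all libraries 7 were higher and the median was 0.01, made up of 0.40 in pair 1_120519, 0.01 in pair 2_120519 and -0.24 in pair 2_290419. Without N-VEGF replicate 1_120519 all 13 were lower in NLS-N-VEGF, at a median of -0.13, with 1 (mt-Nd5, a subunit of complex I) at an unadjusted p under 0.05. With dox 8 of 13 were lower, at a median of -0.09. The share of counts from the mitochondrial genome was 4.79%, 5.21% and 4.56% in NLS-N-VEGF and 3.92%, 5.26% and 5.10% in N-VEGF cells. Genes of the same polycistronic transcript did not move together in the low library. There mt-Co3 was at 6998 CPM against 4614 to 5283 CPM elsewhere, and mt-Co2, another subunit of the same oxidase, at 3426 CPM against 5585 to 6760 CPM.

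One imprinted RNA was called by DESeq2 once that library was left out. Rian, a maternally expressed long noncoding RNA of the Dlk1-Dio3 cluster, had 84.0, 84.2 and 41.3 CPM in NLS-N-VEGF and 61.9, 113 and 56.5 CPM in N-VEGF cells. It was lower by 0.43 and 0.45 in pairs 2_120519 and 2_290419 and higher by 0.44 in pair 1_120519. Without N-VEGF replicate 1_120519 the log2 fold change was -0.45, with an adjusted p of 0.229 by edgeR and 0.0222 by DESeq2, where it was the only gene called. In an edgeR fit of the 5 other uninduced libraries alone, with 1 residual degree of freedom, Rian was 1 of 23 genes called, with an adjusted p of 7.9e-06, behind 10 others that included CT010467.1, Lars2 and Egr1. With dox the difference was -0.06.

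Single genes with the most extreme values were mostly low. By the rule for named genes, 12 on each side were taken with 1 sign in all 3 pairs and a mean of at least 1 CPM. On the higher side, besides Egr1, were Gm12276, Ighv8-14, Wfikkn1, Gm42669, Gm9752, Mst1r, Gm17029, Gm47950, Optc, Tlr1 and Gm47031, with log2 fold changes of 0.84 to 1.08. All but Egr1 were under 3 CPM in every uninduced library. In Gm12276, Gm9752, Gm17029, Gm47950 and Gm47031 the log2 ratio was 2.01 to 2.29 in pair 1_120519 and 0.09 to 0.74 in the other pairs. In Ighv8-14 and Mst1r the largest ratio was in pair 2_290419, at 1.42 and 1.64. Without N-VEGF replicate 1_120519 the log2 fold changes of the genes other than Egr1 were smaller, from 0.42 (Gm47031) to 0.98 (Ighv8-14). Mst1r, the receptor tyrosine kinase for macrophage-stimulating protein, had 2.13, 2.01 and 1.71 CPM against 1.01, 1.73 and 0.47 CPM. Tlr1, a receptor for bacterial lipopeptides, had 1.78, 1.45 and 0.9995 CPM against 0.82, 0.92 and 0.64 CPM. In both genes each NLS-N-VEGF library was close to or above the highest N-VEGF library. Of the exon bases of Gm42669, 71.2% are shared with other genes, so its counts are uncertain.

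On the lower side, besides Aldh3a1, were Col10a1, Eepd1, Cbr2, Klhl30, Cyp4v3, Nudt16, Gm28321, N4bp2os, Gm14401, Gm26694 and Gm527, from -0.78 to -0.54. Col10a1, the collagen of hypertrophic cartilage, had 1.61, 1.38 and 1.57 CPM against 2.2, 3.39 and 2.27 CPM, without overlap, and was lower by 1.01 without N-VEGF replicate 1_120519. Cbr2, a carbonyl reductase, had 2.59, 2.95 and 3.07 CPM against 6.35, 4.37 and 3.38 CPM, also without overlap. Its log2 ratios by pair were -1.26, -0.55 and -0.13, and the log2 fold change went from -0.71 to -0.36 without N-VEGF replicate 1_120519. Gm26694 shares 96.7% of its exon bases with genes on the opposite strand.

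Collagen and matrix lists as a whole were close to even, with medians of 0.04 for 20 collagen genes, 0.03 for 28 other matrix proteins and 0.04 for 28 matrix proteases and inhibitors. When N-VEGF replicate 1_120519 was left out they were 0.0008, 0.03 and 0.04, and 10 collagen genes were higher and 10 lower. With dox these medians were 0.09, 0.10 and 0.08. Thbs1 had 46.7, 41.5 and 120 CPM against 27.4, 27.7 and 130 CPM, and Plau, the urokinase activator of plasminogen, had 47.4, 46.1 and 54.5 CPM against 33.9, 32.04 and 58.7 CPM. Both were higher in the pairs of suffix a without dox and in all 3 pairs with dox. Timp3, a matrix-bound inhibitor of metalloproteases, ran opposite, with 114, 110 and 58.9 CPM against 157, 148 and 60.4 CPM. In Thbs1 and Timp3 the level differed more between the suffixes than between the populations. Interferon-stimulated genes, YAP/TAZ targets and circadian clock genes had medians of -0.0028, -0.0011 and 0.0032, with 0, 0 and 1 gene at an unadjusted p under 0.05.

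The study lists 123 tested genes as higher with nuclear N-VEGF. Since that list was chosen on these samples, with the uninduced libraries as a reference, its baseline values are not independent of the choice. In uninduced cells 86 of the 123 were lower and 37 higher in NLS-N-VEGF, with a median of -0.06. At an unadjusted p under 0.05 there were 10 lower and 4 higher, beside 1.5% and 2.17% of all genes. The 4 higher were Btg2, Adm, Angptl4 and Snx30. The 10 lower included Cbr2, the translocator protein gene Tspo, the water channel gene Aqp1 and Trib3, a pseudokinase induced by ATF4. Trib3 had 37.1, 34.3 and 14.4 CPM against 47.7, 39.3 and 15.4 CPM and was lower in each pair. With dox it was higher by 0.32. Of the 32 tested genes that the study lists as lower, 15 were higher at baseline, with a median of -0.01. When N-VEGF replicate 1_120519 was left out, 8 of the 32 were higher and 24 lower, with a median of -0.07. Of the 123 genes 32 were then higher and 91 lower, with a median of -0.06.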

How the data were processed

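RNA of 12 libraries in 4 groups of 3 was sequenced by the authors from TruSeq (v2) libraries as single reads, which were trimmed with Trim Galore (cutadapt 1.10), aligned with TopHat2 2.1.0 and Bowtie2 2.2.6 to GRCm38 and counted per gene with HTSeq 0.6.1. What was deposited are raw counts of reads for each gene, without normalization. Whether counting used strand is not given in the sources used here. The table held 54447 rows.

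Counts were fitted with edgeR 4.0.16 (R 4.3.3) on all 12 libraries, with TMM scaling, filterByExpr by group, 1 mean per group and the replicate (number and suffix) as a block, and quasi-likelihood tests were two-sided. P values were adjusted over all genes tested, at a threshold of 0.05. DESeq2 1.42.0 was an alternative. The authors used the Wald test of DESeq2 (1.18.1). Pair ratios used a prior count of 2. Deviations from the group means of libraries with the same label correlated in all 18 pairs between groups (lowest 0.319, mean 0.541) over 12058 genes. Of 36 such pairs with different labels 12 also correlated positively, all of them within suffix a. Without dox, NLS-N-VEGF replicate 1_120519 correlated at 0.446 with N-VEGF replicate 2_120519 and at 0.413 with N-VEGF replicate 1_120519. These values show pairing by suffix, while pairing by number within suffix a was not shown.

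The function lists, the marker lists and the comparison itself were chosen with earlier results of these data known, so lists are described by counts and medians with no test. Genes were named by a rule: Vegfa, Hif1a and the insert, any gene past the threshold, otherwise 12 per side by fold change at an unadjusted p under 0.05, a mean of at least 1 CPM and 1 sign in all 3 pairs, and up to 5 leading members of each list. Other names were chosen after their values were seen.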

Additional observations from a re-analysis of the deposited data

How the results depend on the processing

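The paired comparison with edgeR called 0 genes and had 499 at an unadjusted p under 0.05, of which 295 were higher in NLS-N-VEGF. Without the replicate block these were 82 and 52. With the 6 uninduced libraries alone they were 225 and 154 with the block and 32 and 25 without it, and with DESeq2 266 and 153. With no filter on low counts 39 genes were called, Egr1, Cyr61, Ier2 and Aldh3a1 among them, and 1137 and 667 genes were at an unadjusted p under 0.05. The cause was not tested. In the 8 libraries of suffix a alone, 7 genes were called, with 1758 and 884 at that threshold. Leaving out 1 library at a time, 0 to 3 genes were called (3 without NLS-N-VEGF replicate 2_290419: Cyr61, Egr1 and Cxcl5), with 172 to 2124 at an unadjusted p under 0.05 and 103 to 1062 of them higher. The lowest was without NLS-N-VEGF replicate 1_120519 and the highest without N-VEGF replicate 2_290419. Without N-VEGF replicate 1_120519 there were 306, of which 132 higher, and 769 and 472 without N-VEGF replicate 2_120519.

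Alternatives chosen after seeing the data left out N-VEGF replicate 1_120519. With the 5 other uninduced libraries and 1 residual degree of freedom 23 genes were called, mt-Rnr1, mt-Rnr2, Rn7sk and Egr1 among them, with 171 higher at an unadjusted p under 0.05. With DESeq2 1 gene was called (Rian), with 83 and 39, and without the block 93 and 41. Among the named genes the sign changed only for the insert, Vegfa and Hif1a, whose differences in the main fit were each smaller than their SE. The insert was at -0.364 in suffix a alone and at -0.510 to 0.781 leaving out 1 library. Vegfa was at -0.0262 to 0.149 leaving out 1 library, at -0.00418 without N-VEGF replicate 1_120519 and there at -7.383e-05 with DESeq2. Hif1a was at -0.0581 to 0.103 leaving out 1 library, at -0.00181 without N-VEGF replicate 2_120519, at -0.0412 with the 5 libraries alone and at -0.0569 with DESeq2 without N-VEGF replicate 1_120519. Of the other results for named genes 485 kept direction and side of the threshold. With 3 libraries per group, 1 of them apart, the fit rests for its spread on the dox libraries as well.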
